A study of Mus musculus with 8 samples.

Results

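The early response of wild-type T cells to stimulation was read from the 2 of the 8 arrays of the series that are labelled wild type, source number 502, at 0 h and at 4 h. The cells were T cells prepared with a pan-T kit on an AutoMACS device from the spleens of wild-type C57Bl/6 mice. The 0 h array is labelled untreated, and the 4 h array came from cells cultured for 4 h with anti-CD3 plus anti-CD28 antibodies at 2 µg antibody/ml, which engage the T cell receptor and its costimulatory partner. The labels name no cells cultured for 4 h without antibodies, so effects of the antibodies and of culture cannot be told apart, and they do not say whether 502 is 1 animal or a pool. The other 6 arrays hold wild-type cells at 8 and 24 h and T cells of Gfi1-knockout C57Bl/6 mice at 0, 4, 8 and 24 h.

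Engagement of the T cell receptor together with CD28 releases calcium and activates kinase cascades that bring the NFAT, AP-1 and NF-kB transcription factors to the DNA. Within the first hours these factors switch on immediate early genes, cytokines and surface receptors, while genes that hold naive T cells at rest are switched off. The cells then enlarge, make ribosomes and take up amino acids before they copy their DNA.

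Biotin-labelled RNA was measured on Affymetrix MOE430A_2.0 arrays, which carry 22690 probe sets, each a group of short probes for a transcript. A value is the deposited signal, a linear intensity; each array had been scaled to a trimmed mean near 1000. The median signal was 301 at 0 h and 254 at 4 h, and 60.6% and 59.4% of probe sets lay above a signal of 142, which served as a floor. Changes are log2 signal at 4 h minus log2 signal at 0 h, with lower values raised to the floor first. With 1 array a side there was no replicate error and no test, so "rose" and "fell" mean a change of at least 2-fold. The number of arrays limits the precision. As a measure of disagreement between probe sets, the 1794 genes with exactly 2 probe sets above the floor on both arrays gave a median gap of 0.28 between their 2 log2 changes, and the gap passed 1 in 5.52% of them. Both probe sets share the RNA and the arrays, so this gap leaves out scatter between arrays or cell samples. The hybridisation controls, RNAs mixed in at fixed amounts, were higher at 4 h by 0.21 to 0.69 on the log2 scale over their 18 probe sets, and the 27 poly-A control probe sets were higher by 0.45 to 1.10. The 18S ribosomal RNA signal at its 5' end was 26481 at 0 h and 8980 at 4 h (-1.56), while its middle and 3' probe sets changed by -0.27 and -0.34. The part of these shifts in the gene changes was not tested.

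The labelled cell type was checked against its markers. All 13 measured T cell markers were above the floor on both arrays, among them the receptor subunit Cd3d at a signal of 22779.7 at 0 h and 21068 at 4 h. The summed signal of these 13 markers was 103452 at 0 h and 89059 at 4 h. Markers of other blood cells were also present at 0 h and are given with the genes that fell.

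Of the 15062 probe sets that exceeded the floor on 2 or more of the 8 arrays, 918 (6.09%) rose and 1521 (10.1%) fell. At 1 probe set per gene, 529 of 8457 genes rose (6.26%) and 950 fell (11.2%). The rises were fewer but steeper: 133 genes rose at least 4-fold (1.57%) against 93 that fell as much (1.1%), 51 against 11 passed 8-fold, and 21 rose at least 16-fold while 0 fell so far. The absence of 16-fold falls depended on the processing. Slc40a1 passed 16-fold with the floor at the 20th percentile (-4.57 on the log2 scale). Igfbp4 (-4.06) and Aqp1 (-4.02) passed it when scaled to the hybridisation controls. The balance depended on the scaling of the arrays. Of the changed probe sets, 37.6% were higher as deposited, 49.6% after quantile normalization, 60.1% with arrays centred on their medians, and 14.3% when scaled to the hybridisation controls. These scalings put the median log2 change of all probe sets at -0.07, 0.00, 0.06 and -0.40 in turn.

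**Figure D1:**
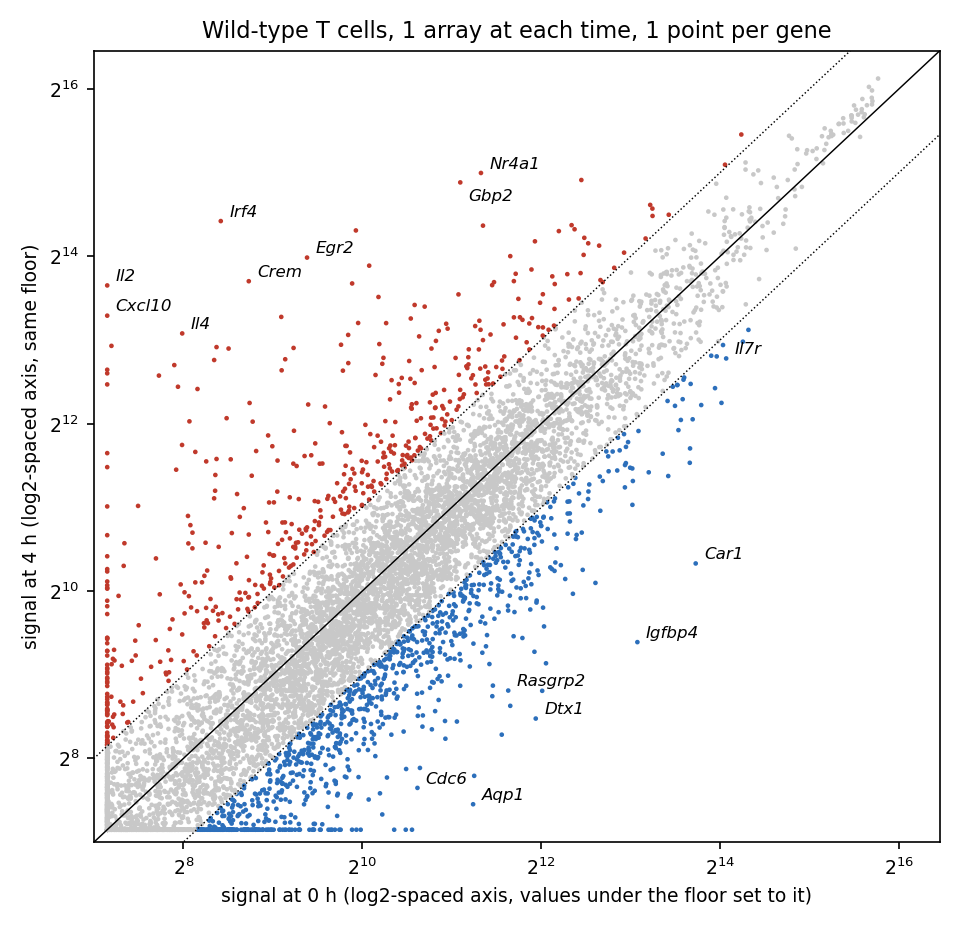
Signal at 4 h against signal at 0 h for 8457 genes on the wild-type arrays, both axes log2-spaced, values under the floor of 142 set to it. The dotted lines mark 2-fold changes; red points rose (529 genes) and blue points fell (950 genes), and Il2, Cxcl10 and Irf4 lie farthest above the diagonal.

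The steepest rises were in secreted signals and in transcription factors. Il2, the T cell growth factor interleukin-2, had a signal of 129 at 0 h, under the floor, and 12882 at 4 h, at least 90.8-fold higher. It was at 8782 at 8 h and 7257 at 24 h, so 4 h held the highest of the 4 wild-type levels. Cxcl10, a chemokine that draws activated T cells, went from 119, under the floor, to 10028, at least 70.7-fold higher, and was back to 905 at 24 h. The transcription factor Irf4, which acts in step with receptor signal strength, was at 342 at 0 h, 21952 at 4 h and 22014 at 8 h, a 64.2-fold rise at 4 h. Atf3, a stress-induced bZIP factor, rose 53.3-fold, from 147 to 7809, and Crem, a bZIP factor of the cyclic AMP pathway, rose 31.4-fold, from 425 to 13339.8. The others among the 12 largest rises were the semaphorin Sema7a, the chemokines Ccl3 and Cxcl9, the cytokines Lif, Il4 and Tnf, and the zinc finger factor Egr2. Single probe sets carried some of these sizes: Sema7a gave changes of 5.50 and 1.39 on its probe sets and Lif gave 5.32 and 1.84, so their sizes are uncertain though each probe set was over 2-fold. Sizes from low 0 h signals also depended on the floor: with it at the 60th percentile the changes of Il2, Cxcl10 and Atf3 were 4.75, 4.39 and 4.03 on the log2 scale, against 6.50, 6.14 and 5.74.

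The 12 largest falls held genes listed below for naive and quiescent T cells, red cell markers and other genes. Igfbp4, which binds insulin-like growth factors, was at 8638 at 0 h and 671 at 4 h, 12.9-fold lower, and its 6 probe sets gave -3.72 to -2.09 on the log2 scale. It stood at 2588 at 8 h and 2255 at 24 h, above its 4 h level. On the knockout-labelled arrays Igfbp4 was at 13359 at 0 h and 9174 at 4 h, a change of -0.54. Dtx1, a Notch pathway gene, was 11.0-fold lower, from 3929.5 to 356, and remained at 331 and 293 later. Ccr9, a homing receptor for the gut and thymus, was 9.21-fold lower, from 4131 to 448. Cdc6, which loads the replicative helicase onto DNA, was 7.83-fold lower, from 1571 to 201, was at 157 at 8 h and was back at 1691 at 24 h. The water channel Aqp1, the carbonic anhydrase Car1, the erythroid factor Klf1 and Ermap are red cell markers and are described with them below. The iron exporter Slc40a1, the biliverdin reductase Blvrb, Gatm and Marveld1 complete the 12. Slc40a1, Gatm and Marveld1 were at the floor at 4 h and were at least 10.1-, 10.6- and 9.25-fold lower; the second probe set of Marveld1 gave -0.61 on the log2 scale and that of Slc40a1 gave -2.29.

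Over 24 gene lists of 528 genes, 462 genes were measured above the floor on at least 2 arrays, of which 165 rose (35.7%, against 6.26% of all genes) and 60 fell (13.0%, against 11.2%). The counts of each list are to be read against those shares of all genes, and the lists were chosen with results known. The median gene of all 8457 changed by -0.10, and 17 of the 24 lists had a median above 0.

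**Figure D2:**
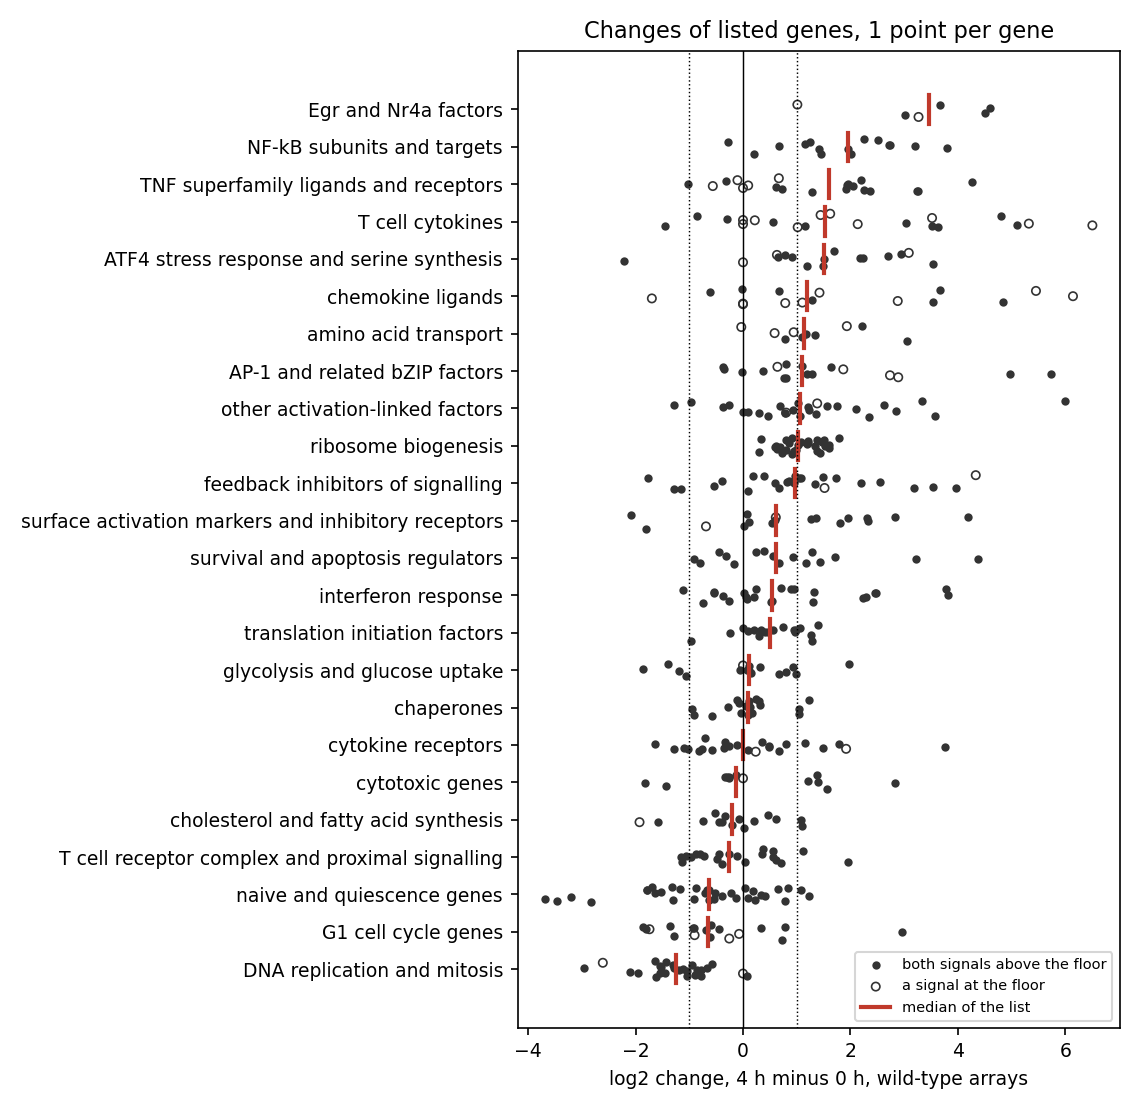
Log2 change at 4 h of each gene of the 24 lists on the wild-type arrays, 1 point per gene; open circles have a signal at the floor, red bars are list medians and dotted lines mark 2-fold. The Egr and Nr4a factors have the highest median, 3.47, and the DNA replication and mitosis genes the lowest, -1.25.

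All 6 measured Egr and Nr4a factors rose, with a median of 3.47. These are immediate early factors: the Egr zinc finger proteins couple the receptor to cytokine and tolerance genes, and the Nr4a orphan nuclear receptors are used as reporters of antigen signal. Egr2 was at 668 at 0 h and 16224 at 4 h (24.3-fold), and Egr1 was at 2611 and 21139 (8.10-fold). Nr4a1, known as Nur77, already had a signal of 2569.9 at 0 h and reached 32700.1 at 4 h, 12.7-fold higher. Nr4a2 rose 22.7-fold, from 246 to 5565. All of these were lower again at 24 h: Nr4a2 was at 719, Nr4a1 at 3153 and Egr1 at 4230.4. Nr4a3 rose at least 9.63-fold and Egr3 at least 2.02-fold from signals under the floor.

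The promoter of Nr4a1 is shown because it carries repeats of 1 motif. The window is the 250 bases before the RefSeq start of the gene, GRCm38.p6, chr15:101266596-101266845, plus strand, 5′ to 3′, with matches to TGCGTCA, a relative of the cyclic AMP response element searched on both strands, in capitals.
Nr4a1: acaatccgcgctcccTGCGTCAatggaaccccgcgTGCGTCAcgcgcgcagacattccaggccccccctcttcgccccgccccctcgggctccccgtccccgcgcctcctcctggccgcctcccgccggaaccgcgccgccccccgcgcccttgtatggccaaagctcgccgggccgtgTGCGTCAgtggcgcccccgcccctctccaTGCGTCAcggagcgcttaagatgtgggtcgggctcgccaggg
It held 4 matches, the nearest at -71 to -65 and -42 to -36, counted from the start. At least 1 match was in 1.75% of all 32851 RefSeq promoter windows, in 2.98% of the 8922 windows of genes measured here, in 5 of the 140 windows (3.57%) of genes that rose at least 4-fold and in 3 of the 115 (2.61%) of genes that fell as much, so the share among the steep rises was close to that of the measured genes. The windows of Il2, Irf4, Nr4a2, Atf3 and Egr2 held none of the 6 motifs searched: this one, the full cyclic AMP response element (TGACGTCA), the AP-1 site (TGANTCA), the STAT-binding GAS site (TTCNNNGAA), the core of the interferon-stimulated response element and 1 strict form of the NF-kB site. That strict form was in 0.36% of all windows. Looser forms of these sites were not searched, so a window without a match may still hold them.

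Among 17 AP-1 and related bZIP factors, 9 rose and 0 fell, with a median of 1.10. The classic dimer partners were not among those that rose: Fos was at 14366 at 0 h and 14241 at 4 h, Jun at 3569 and 4602, and Junb at 4829 and 8370.1. Those that rose were instead Atf3, Crem, Maff, Nfil3, Fosl2, Atf4, Fosb, Mafg and Mafk. Maff, a small Maf protein, was under the floor at 0 h and at 1052 at 4 h, at least 7.41-fold higher. Atf4, the effector of the amino acid stress response, went from 4467 to 13886, 3.11-fold higher.

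Of 15 NF-kB subunits and targets, 12 rose and 0 fell, with a median of 1.95. The subunit genes Rel, Nfkb2, Relb and Rela all rose, Rel by 9.24-fold (from 331 to 3059), Relb by 5.68-fold and Rela by 2.24-fold. Nfkb2 gave 2.74 and 1.34 on the log2 scale on different probe sets. The target Cd83, a surface protein of activated lymphocytes and dendritic cells, rose 13.8-fold, from 947 to 13094. The adhesion molecule Icam1 rose 6.57-fold, from 1492 to 9793. Inhibitors of the pathway rose beside its subunits: Tnfaip3, the A20 enzyme, went from 3317 to 13349 and Nfkbib from 655 to 3136. Nfkbia, which encodes the main cytoplasmic inhibitor, was high on both arrays, at 27986 and 44495, and its change of 0.67 there was under 2-fold; its 4 probe sets ran from 0.29 to 1.49.

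Of 27 other transcription factors linked to activation, 15 rose and 1 fell, with a median of 1.06; the number that rose ranged from 9 to 17 over the alternative settings, with 9 under the scaling to hybridisation controls. After Irf4, Bhlhe40, which supports cytokine production, went from 358 to 4289, a rise of 3.58 on the log2 scale. Irf8 rose 10.1-fold, from 1161 to 11707. Gfi1, the repressor deleted in the knockout mice of the series, rose 7.21-fold in these wild-type cells, from 882 at 0 h to 6359 at 4 h. Myc, the driver of growth and metabolism, rose 5.09-fold, from 3225 to 16418, and Tbx21, the factor of type 1 helper cells, rose 6.16-fold. Gata3, the factor of type 2 helper cells, was at 556 and 769, a change of 0.47. Id3, an inhibitor of E proteins, fell 2.44-fold, from 1375 to 564.

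**Figure D3:**
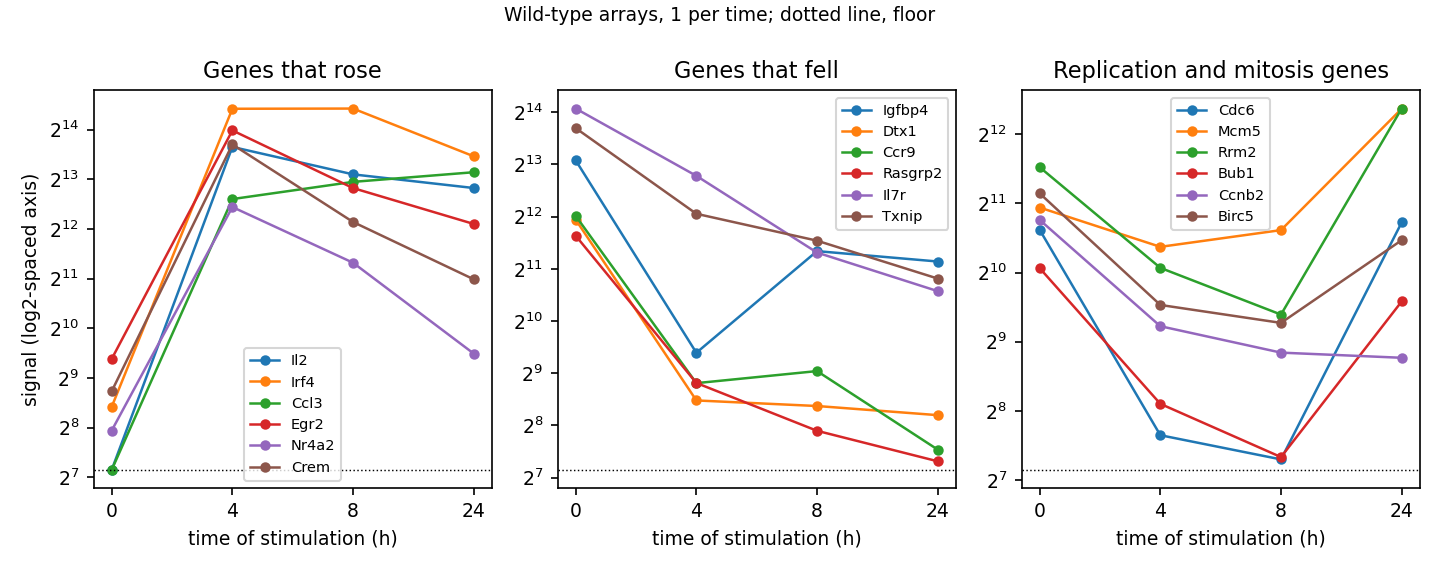
Signal of 18 genes on the 4 wild-type arrays at 0, 4, 8 and 24 h, log2-spaced axis, values under the floor (dotted line) set to it, 1 array per time. Il2, Egr2, Nr4a2 and Crem are highest at 4 h; Dtx1, Rasgrp2 and Il7r stay below their 0 h level; Cdc6, Rrm2 and Mcm5 are higher at 24 h than at 0 h.

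Of 20 cytokine genes measured, 13 rose and 1 fell, with a median of 1.53, and 10 of the 20 were under the floor at 0 h. Over the alternative settings 9 to 14 rose and the median ran from 0.77 to 2.73. Il2, Lif, Il4 and Tnf rose most. Il4, the type 2 cytokine, went from 254 at 0 h to 8656 at 4 h, 34.1-fold higher, and was at 5019 at 8 h and 1884 at 24 h. Tnf, the inflammatory cytokine, rose 27.9-fold, from 239 to 6659, and was at 683 at 24 h. Ifng, the type 1 cytokine interferon-gamma, rose 12.4-fold, from 564 to 6989, and Csf2, which acts on myeloid cells, rose 11.5-fold, from 180.2 to 2074. Genes of several helper subsets rose on the same array: Il17a was under the floor at 0 h and at 1627 at 4 h, Il10 went from 94.0 to 623, and Il21 from 92.9 to 437. Il16, a chemoattractant made by resting lymphocytes, fell 2.73-fold, from 5684 to 2083. Il9 and Il1a were under the floor on both arrays.

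Of 16 chemokine ligands, 9 rose and 1 fell, with a median of 1.195, and 8 were under the floor at 0 h. Over the alternative settings 6 to 11 rose and the median ran from 0.56 to 2.62. Ccl3 and Ccl4, inflammatory chemokines, were at 6219.7 and 7675 at 4 h; Ccl3 was under the floor at 0 h (at least 43.8-fold) and Ccl4 was at 601 (12.8-fold). Ccl3 went on to 9048 at 24 h, its highest level. Xcl1, which attracts cross-presenting dendritic cells, rose 11.6-fold, from 548 to 6376. Cxcl9, an interferon-gamma target, rose 28.8-fold, from 212 to 6104, and like Cxcl10 was lower at 24 h, at 1087. Ccl5, a chemokine of memory and effector cells, was at 7116 and 4639.9, a change of -0.62. The 1 that fell, Ccl6, gave -1.70 and 0.00 on its probe sets and is uncertain.

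Of 24 cytokine receptors, 5 rose and 4 fell, where 6.26% and 11.2% of all genes did. Their median was -0.01 as deposited, 0.06 after quantile normalization, 0.24 with arrays centred on their medians and -0.38 when scaled to the hybridisation controls. Il2ra, the high-affinity subunit of the interleukin-2 receptor, rose 13.6-fold, from 253 to 3436. Il12rb2, the inducible subunit of the interleukin-12 receptor, was under the floor at 0 h and at 537 at 4 h, and Il4ra went from 1057 to 2978. Receptors of resting cells were among those that fell: Il7r, which receives the interleukin-7 survival signal, fell 2.44-fold, from 17192 to 7035, and Il6ra fell 3.11-fold, from 1415 to 455. Il7r was lower still at 2539.9 at 8 h and 1522 at 24 h.

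Of 20 ligands and receptors of the TNF superfamily, 11 rose and 1 fell, with a median of 1.61. Tnfsf11, the RANK ligand, rose 19.1-fold, from 286 to 5462. The costimulatory receptors Tnfrsf4 (OX40), Tnfrsf9 (4-1BB) and Tnfrsf18 (GITR) rose 9.51-, 5.17- and 4.77-fold, to 9438, 4115 and 8843. Both partners of the death receptor pair rose: Fasl by 4.57-fold and Fas by 2.45-fold. Cd40, usually found on antigen-presenting cells, went from 162 to 1522, while its ligand Cd40lg was under the floor at 0 h and at 225 at 4 h, under 2-fold above the floor.

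Of 17 surface activation markers and inhibitory receptors, 8 rose and 2 fell, with a median of 0.61. Ligands and receptors of the PD-1 pathway rose together: Cd274 (PD-L1) 18.2-fold, from 547 to 9925, Pdcd1lg2 (PD-L2) 5.03-fold, and Pdcd1 (PD-1) 4.98-fold, from 409 to 2036. Ctla4, which competes with CD28 for its ligands, rose 3.89-fold, from 1362 to 5299, and the costimulator Icos rose 3.48-fold. Slamf1 rose on every probe set, by 2.83 to 4.78 on the log2 scale. Cd28 itself was at 6607 and 6724, a change of 0.03. Cd7 fell 4.23-fold, from 2598 to 615; Slamf6 gave -1.80 and -0.10 on its probe sets.

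Of 26 negative regulators of signalling, 12 rose and 3 fell, with a median of 0.97. Among all genes 6.26% rose and 11.2% fell, so falls were about as frequent here as among all genes. Spry1, an inhibitor of the Ras pathway, rose 15.6-fold, from 268 to 4178. The cytokine signal suppressors Socs1 and Cish rose 11.6- and 9.07-fold, to 2799.8 and 7881. Rgs16, which dampens G protein signalling, was under the floor at 0 h and at 2859.7 at 4 h, at least 20.2-fold higher. The 3 that fell were diacylglycerol kinases and an RNA-decay factor: Dgka went from 11563 to 4751, Dgkz from 15976 to 7156, and Zfp36l2 from 16578 to 4869. The kinases remove the diacylglycerol that carries the receptor signal to Ras, and Dgka is known to be repressed upon activation.

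Of 21 genes of the T cell receptor complex and its proximal signalling, 2 rose and 3 fell, where 6.26% and 11.2% of all genes did. Their median was -0.26. The number that fell was 0 with arrays centred on their medians and 7 with the scaling to hybridisation controls. The adaptor Lcp2 (SLP-76) rose 3.86-fold, from 5309 to 20514, and the adhesion receptor Cd2 rose 2.17-fold. The coreceptors Cd4 and Cd8b1 fell 2.22- and 2.21-fold, from 2195 to 989 and from 10916 to 4947, and the adaptor Lat fell 2.08-fold. Cd8a changed by -0.40, Cd3e by -0.45 and Zap70 by 0.36.

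Genes of naive and quiescent T cells mostly fell where they changed: 12 of 34 fell and 2 rose, with a median of -0.63. Beside Igfbp4, Dtx1 and Ccr9, Rasgrp2, which activates the integrin switch Rap1, fell 7.07-fold, from 3175 to 449. Its probe sets gave -2.82 and -1.43 on the log2 scale. The Wnt-pathway factor Lef1 fell 3.24-fold, from 3581 to 1105, and S1pr1, the receptor used to leave lymphoid organs, fell 2.45-fold, from 3356 to 1368. Txnip, a brake on glucose uptake, fell 3.12-fold, from 13259 to 4250.4. The members that did not pass 2-fold lay on both sides of 0, from -0.92 for Klf13 to 0.84 for Bach2. Klf2 was at 7773 and 4736 and Foxo1 at 3443 and 2223, whereas Slfn2 was at 9938 and 17188 and the homing receptor Ccr7 at 8907 and 11252. Cdkn1b, the p27 inhibitor, gave -0.87 on its brighter probe set and -2.59 on the other and is uncertain. The 2 that rose were the chromatin organiser Satb1, 2.36-fold, from 9715 to 22909, and Tob2, whose probe sets gave 0.11 to 1.46.

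Ribosome biogenesis genes moved together by small steps. Of 29, 15 rose and 0 fell, all 29 were higher at 4 h, and the changes ran from 0.30 to 1.79 with a median of 1.02. Tsr1, a maturation factor of the small subunit, rose 3.45-fold, from 1090 to 3759.6. The nucleolar proteins Gnl3 and Nolc1 rose 3.05- and 2.87-fold, to 9331 and 6592, while Ncl and Npm1, already at 15915 and 22042 at 0 h, changed by 0.91 and 0.60. Because the median lay near the 2-fold line, the number that rose was 22 with arrays centred on their medians, 18 after quantile normalization and 8 with the scaling to hybridisation controls.

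Genes of translation and amino acid supply shared this direction. Of 18 translation initiation factors, 4 rose and 0 fell with a median of 0.51, and 1 to 7 rose over the alternative settings; Eif2s2 rose 2.63-fold, from 9541 to 25100.3. Of 10 amino acid transporters, 6 rose and 0 fell, with a median of 1.14. Slc7a5 and Slc3a2, the chains of the large neutral amino acid transporter, rose 8.26- and 4.66-fold, from 369.5 to 3050.5 and from 2844 to 13238. Of 16 genes of the ATF4 stress response and serine synthesis, 10 rose and 1 fell, with a median of 1.501. Mthfd2, the mitochondrial folate enzyme, rose 7.65-fold, from 1232 to 9428, and Psat1, an enzyme of serine synthesis, rose 6.50-fold, from 1661 to 10808. Shmt1, the cytosolic serine hydroxymethyltransferase, rose on each probe set, by 2.22 to 3.53 on the log2 scale. Ddit4, an inhibitor of mTORC1, fell 4.63-fold, from 5655 to 1221.

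Sugar, lipid and folding genes showed no shared shift at 4 h. Of 16 glycolysis and glucose uptake genes, 1 rose and 4 fell, with a median of 0.12, or -0.24 when scaled to the hybridisation controls. With arrays centred on their medians 4 rose and 2 fell, with a median of 0.36. Hk2, the inducible hexokinase, rose 3.94-fold, from 308 to 1214, whereas the neuronal-type glucose transporter Slc2a3 fell 2.29-fold and Slc2a1 changed by 0.67. Of 15 cholesterol and fatty acid synthesis genes, 2 rose and 2 fell, with a median of -0.20, or 0.05 with arrays centred on their medians; Cyp51 went from 589 to 1261 and Scd2 from 1696 to 567. Of 18 chaperones, 3 rose and 0 fell, with a median of 0.10, or -0.08 after quantile normalization and -0.28 when scaled to the hybridisation controls. The 3 were Hspa9, the mitochondrial form, from 4544 to 10606, Hspa5, the form of the endoplasmic reticulum, from 17038 to 35018, and Hspa4, whose probe sets gave -0.64 to 1.03.

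Proliferation genes were lower at 4 h than at 0 h. Of 26 genes of DNA replication and mitosis, 17 fell and 0 rose, with a median of -1.25. Tk1, thymidine kinase, went from 866 to under the floor, at least 6.11-fold lower, and Dut, which keeps uracil out of DNA, gave -2.10 and -0.51 on its probe sets. Rrm2, the small subunit of ribonucleotide reductase, fell 2.74-fold, from 2942 to 1073, and was at 672 at 8 h and 5295 at 24 h. The mitotic genes Birc5, Ccnb2 and Plk1 fell 3.06-, 2.90- and 2.88-fold. Pcna, the replication clamp, was at 20694 and 21892, a change of 0.08. The helicase subunits Mcm2 to Mcm7 changed by -1.04 to -0.57 on their highest-signal probe sets. Other probe sets lay outside this range: those of Mcm3 ran from -1.24 to 0.05, so it is uncertain, and those of Mcm2 from -1.385 to -0.68. Over the alternative settings, 12 to 23 of the 26 fell and 0 rose.

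G1 cell cycle genes had a median of -0.66, with 1 of 18 higher and 5 lower; 3 to 8 fell over the alternative settings. Cdkn1a, the p21 inhibitor, gave 2.97 and 0.57 on its probe sets. Ccnd3, a D-type cyclin, fell 3.62-fold, from 3497 to 965, while Ccnd2 was at 10394 and 17244, a change of 0.73. The inhibitor Cdkn2d fell 3.50-fold, from 2853 to 815.

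Of 16 survival and apoptosis regulators, 6 rose and 0 fell, with a median of 0.61. The stress gene Gadd45b had its highest-signal probe set at 975 and 20313, 20.8-fold higher, though its probe sets ran from 0.47 to 4.95 on the log2 scale. The kinase Pim1 rose on every probe set, by 1.04 to 3.22. Bcl2l1, which encodes Bcl-xL, went from 628 to 1703 with probe sets from 0.97 to 2.59, and Mcl1 was at 13278 and 17322, a change of 0.38.

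Of 13 cytotoxic genes, 5 rose and 2 fell, where 6.26% and 11.2% of all genes did, with a median of -0.13. The median was 0.54 with the floor at the 60th percentile, where 10 genes were left, and 3 rose with the scaling to hybridisation controls. Gzmb, granzyme B, rose 2.63-fold, from 426 to 1121, and Serpinb9, its intracellular inhibitor, rose 7.13-fold, from 674 to 4804. Prf1, perforin, fell 3.54-fold, from 1172 to 331, and the granule protein Nkg7 fell 2.68-fold, from 5895 to 2196.

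Of 24 interferon response genes, 8 rose and 1 fell, with a median of 0.53. The steepest were GTPases of cell-autonomous immunity, which interferon-gamma is known to induce. Gbp2 rose 13.8-fold, from 2189 to 30242, and Iigp1 rose 14.0-fold, from 1081 to 15173. Irgm1 rose 5.54-fold and Igtp 5.51-fold, to 11959.9 and 30848. The members that did not pass 2-fold ran from -0.74 for Oasl1 to 0.95 for Usp18. Between them lay Stat2 at 0.89, Irf7 at 0.71, Ifit3 at 0.54, Ifit1 at 0.05 and Mx1 at -0.53. Ifit2 was the 1 that fell, from 1499.6 to 694.

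The promoters of Cxcl10, Gbp2 and Igtp are shown because they pair interferon and AP-1 or STAT motifs upstream of genes that rose steeply. Each is the 250 bases before the RefSeq start in GRCm38.p6, 5′ to 3′ on the gene's strand: Cxcl10 at chr5:92348890-92349139, minus strand, Gbp2 at chr3:142620413-142620662, plus strand, and Igtp at chr11:58199306-58199555, plus strand. Capitals mark matches, on either strand, to the core of the interferon-stimulated response element, the AP-1 site (TGANTCA) and the STAT-binding GAS site (TTCNNNGAA).
Cxcl10: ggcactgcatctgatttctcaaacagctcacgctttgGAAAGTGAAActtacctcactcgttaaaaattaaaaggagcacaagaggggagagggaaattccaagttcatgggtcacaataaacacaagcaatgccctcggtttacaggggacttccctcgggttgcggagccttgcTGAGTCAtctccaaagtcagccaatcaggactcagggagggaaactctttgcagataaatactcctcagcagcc
Gbp2: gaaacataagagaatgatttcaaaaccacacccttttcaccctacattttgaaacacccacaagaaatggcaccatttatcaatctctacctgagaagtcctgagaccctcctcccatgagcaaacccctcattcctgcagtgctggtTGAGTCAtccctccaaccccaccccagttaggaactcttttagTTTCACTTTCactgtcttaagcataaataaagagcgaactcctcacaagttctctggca
Igtp: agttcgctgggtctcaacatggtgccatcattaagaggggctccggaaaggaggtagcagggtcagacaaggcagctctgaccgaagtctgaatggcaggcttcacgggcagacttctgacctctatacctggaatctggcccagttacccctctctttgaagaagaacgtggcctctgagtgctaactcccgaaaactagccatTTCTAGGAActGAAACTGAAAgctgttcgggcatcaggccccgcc
The response element core is the run in capitals at -213 to -204 of Cxcl10, counted from the start, and the AP-1 match lay at -74 to -68. Gbp2 held the AP-1 letters at -102 to -96 and the core, read on the other strand, at -59 to -50. Igtp held a GAS match at -45 to -37 and a core at -34 to -25. The response element core was in 2.98% of all 32851 windows, in 2.84% of the 8922 windows of measured genes, in 13 of the 140 windows (9.29%) of genes that rose at least 4-fold and in 1 of the 115 (0.87%) of genes that fell as much. The AP-1 letters were in 6.75% of all windows, 4.80% of those of measured genes, 12.1% of those of steep rises and 6.09% of those of steep falls. The GAS letters were in 7.02%, 6.00%, 10.0% and 5.22% in the same order. A match describes letters only, and these shares were not tested.

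Markers of red cells, macrophages and B cells were mostly lower at 4 h than at 0 h. In bulk RNA, fewer cells of a type and less RNA per cell cannot be told apart. Of 9 measured red cell markers, 8 fell and 0 rose, with a median of -2.50, and their summed signal went from 37537 to 6002. Car1, an erythroid carbonic anhydrase, went from 13575 to 1288 (10.5-fold lower), Aqp1 from 2418 to 175, the erythroid master factor Klf1 from 3019 to 312, and Ermap from 3225 to 396. With a floor at the 60th percentile, 5 of the red cell markers fell. Of 16 monocyte and macrophage markers, 7 fell and 0 rose, with a median of -0.79 and a summed signal of 9596 at 0 h and 3657 at 4 h. Csf1r, the receptor of the macrophage growth factor, went from 2245 to 704, with 3 probe sets from -1.77 to -0.47, and the lysozyme Lyz2 fell 2.56-fold, from 2114 to 825. The number of these markers that fell was 2 to 13 over the alternative settings. Among 10 B cell markers 4 fell and 1 rose, with 2 to 7 lower over the settings and a summed signal of 8017 and 4558.

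**Figure D4:**
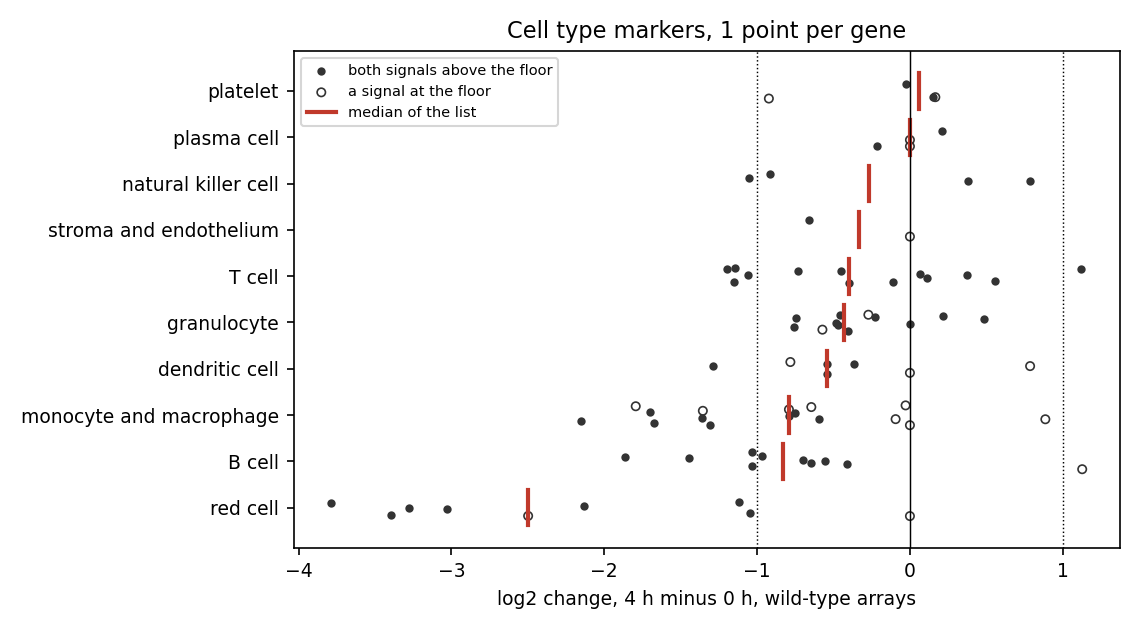
Log2 change at 4 h of each marker gene of 10 cell types on the wild-type arrays, 1 point per gene; open circles have a signal at the floor, red bars are medians and dotted lines mark 2-fold. The red cell markers have the lowest median, -2.50, and the T cell markers a median of -0.40.

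The other marker lists gave smaller median changes, though not all had smaller signals. The 4 plasma cell markers had a summed signal of 21424.5 at 0 h and 20206 at 4 h, with Jchain at 15207 and 13093. Of 12 granulocyte markers 0 rose and 0 fell, with a median of -0.43 and a summed signal of 15348 and 10990. Natural killer cell, dendritic cell, plasma cell, platelet and stromal markers, 21 in all, held 2 that fell: Klrd1, a natural killer receptor, and the dendritic cell integrin Itgax. Of the T cell markers themselves 4 fell (Thy1, Cd4, Cd8b1 and Lat) and Cd2 rose, with a median of -0.40. These calls depended on the scaling: 0 fell with arrays centred on their medians (median -0.155), and 0 rose after quantile normalization or with the scaling to hybridisation controls. Red cells in the spleen include dividing precursors, and the replication and mitosis list fell on the same pair of arrays. The part of the loss of red cell and macrophage signal in that fall, or in the fall of other genes, was not tested. Of the 16 macrophage markers 7 were under the floor at 4 h, among them C1qa and C1qc, while Lyz2 and Csf1r were still above it and Cd14 went from under the floor to 262.

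The knockout-labelled arrays at 0 h and 4 h share no array with the wild-type pair and give the nearest set of values. On them 454 of the 8457 genes rose (5.37%) and 471 fell (5.57%). Of the 529 genes that rose in wild type, 230 (43.5%) also rose there, or 50.7% of the knockout-labelled rises, and 2 fell. Of the 950 that fell in wild type, 230 (24.2%) fell there too, or 48.8% of the knockout-labelled falls, and 6 rose. Across the 8457 genes the changes had a Pearson correlation of 0.589, a description only, since genes are not independent replicates. The difference between the genotypes has no replicates, so it was not tested, and marker signal already differed at 0 h. Summed T cell markers stood at 33313 on the knockout-labelled array against 103452 in wild type. Granulocyte markers stood at 138268 there against 15348, and monocyte and macrophage markers at 34576 against 9596. Plasma cell and red cell sums were also higher there, while B cell, natural killer and dendritic cell sums were lower. The part of these differences in the changes at 4 h was not tested.

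**Figure D5:**
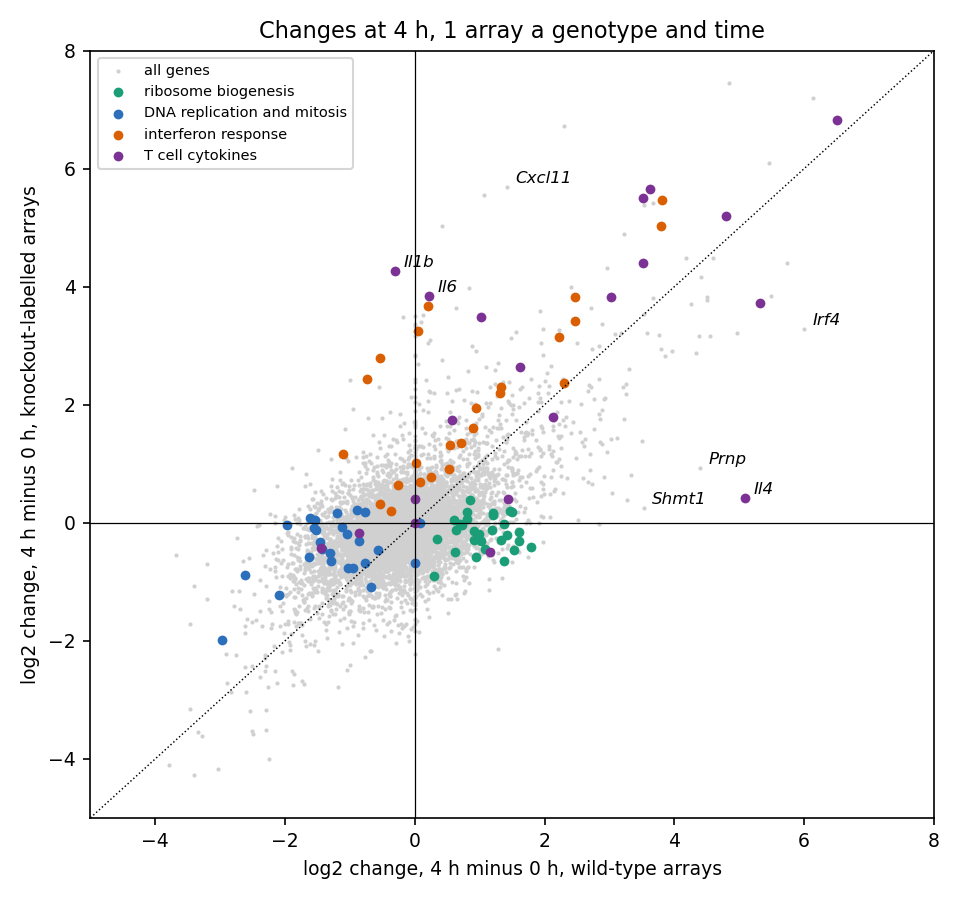
Log2 change at 4 h on the wild-type arrays (horizontal) against the knockout-labelled arrays (vertical), 1 point per gene, 1 array per genotype and time. The 29 ribosome biogenesis genes lie right of 0 with a wild-type median of 1.02 and a knockout-labelled median of -0.15, and the interferon response genes lie mostly above the dotted line of equal change.

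Subtracting the knockout-labelled change from the wild-type change left 52 probe sets (0.345%) at least 4-fold more upward in wild type and 120 (0.797%) at least 4-fold more downward. At the gene level the 5 farthest upward were Il4, Prnp, Fosb, Shmt1 and Nr4a3. Il4 changed by 5.09 in wild type and by at least 0.42 in the knockout-labelled cells, from 28.9, under the floor, to 190.4 there. Prnp, the prion protein gene, went from 363 to 7638 in wild type and from 434 to 823 in the knockout-labelled cells; its wild-type changes were 4.39 and 3.07 on its probe sets. Shmt1 went from 281 to 3244 and from 859.6 to 1026 in the same order. The 5 farthest downward were Ptgs2, Il1b, Saa3, Acod1 and Cxcl11, inflammatory genes that myeloid cells make. Nr4a3, Ptgs2, Acod1 and Cxcl11 were under the floor at 0 h in both genotypes, and Saa3 in wild type. For the genes under it in both, the difference compares the 4 h signals alone and leaves out 0 h differences under the floor. Those of Saa3 and Il4 depend on the floor, which replaced the 0 h signal in wild type and knockout-labelled cells, respectively. Acod1 was at 696 at 4 h in wild type and 15027 in the knockout-labelled cells, and Il1b at 354 and 3639.

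Several lists had medians on the same side in both genotypes. The Egr and Nr4a factors had medians of 3.47 in wild type and 2.62 in the knockout-labelled cells, the NF-kB genes 1.95 and 2.39, the TNF superfamily 1.61 and 1.38, and the naive and quiescence genes -0.63 and -0.50. Other lists had values farther apart. Of the 29 ribosome biogenesis genes 15 rose in wild type and 0 in the knockout-labelled cells, where 0 also rose under each alternative setting. Of the 26 replication and mitosis genes 17 fell in wild type and 3 in the knockout-labelled cells, with medians of -1.25 and -0.38. Of the 24 interferon response genes 8 rose in wild type and 18 in the knockout-labelled cells, with medians of 0.53 and 2.07. Red cell markers fell on both pairs, 8 of 9 each, with medians of -2.50 and -3.57.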

How the data were processed

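Wild-type T cells at 0 h and 4 h gave 1 Affymetrix array each. The values are the authors' deposited signal, a linear intensity per probe set, made with GCOS 1.4 and MAS5 per the submitters' processing notes. Each array had a 2% trimmed mean near 1000, as tested on the files; no build is given in the sources used here. The floor, 142, was set by taking the 40th percentile of every array (8 values) and their median. Probe sets above it on at least 2 of 8 arrays entered; control probe sets were left out. Changes are log2 differences of signals raised to the floor; of several probe sets for a gene, the one highest on average over the arrays stood for it. Of the probe sets, 20380 had 1 gene symbol, 691 several and 1555 none; only the first kind were named. Computations used python 3.11.15, pandas 2.3.3 and numpy 2.4.6, and the counting was tested on simulated data. The members and lists were chosen with earlier results of these data known. Genes named are the 12 largest changes each way, up to 4 per list and direction at 2-fold, and the 5 farthest apart between genotypes, with listed genes beside them for contrast. Listed genes with no probe set of 1 symbol, such as Cd69 and Lck, were not analysed here. Promoter windows and gene starts are from RefSeq (GRCm38.p6), matched by symbol for 6920 of 8457 genes; 6 motifs were searched on both strands, overlapping matches included. Alternatives changed the floor, scaling, filter, gene summary and fold threshold.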

Additional observations from a re-analysis of the deposited data

Results flagged for a closer look

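The genes named from the lists included 3 that changed at least 2-fold in opposite directions on the wild-type and the knockout-labelled arrays. With 1 array per genotype and time, these differences were not tested. Fosb, an AP-1 subunit, went from 143 to 348 in wild type, a log2 change of 1.29, and from 1095 to 250 in the knockout-labelled cells, a change of -2.13. Its wild-type 0 h signal lay next to the floor of 142, so the size of that rise is uncertain. Ifit2, an interferon-induced gene, went from 1499.6 to 694 (-1.11) in wild type and changed by 1.17 in the knockout-labelled cells. Tnfrsf1a, the main receptor of Tnf, went from 1344 to 662 (-1.02) in wild type and changed by 1.04 in the knockout-labelled cells. The last pair of changes lay close to the 2-fold line on both sides.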

How the results depend on the processing

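Each side had 1 array, so no replicate could be left out and no error was estimated. No paired analysis was possible because each group held 1 array and no result came from a test. Counts are of probe sets, higher then lower at 4 h, against 918 and 1521 as reported: 1420 and 944 with arrays centred on their medians, 2140 and 2575 with the floor at the 20th percentile, 655 and 736 at the 60th, 761 and 1002 with the floor added to the signal, 529 and 950 at 1 probe set per gene, 484 and 861 with per-gene medians, 2044 and 3409 at 1.5-fold, and 198 and 155 at 4-fold. Scaling to the hybridisation controls, chosen after seeing the data, gave 476 and 2854. The counts of probe sets at least 4-fold more upward or more downward in wild type than in the knockout-labelled cells, 52 and 120 as reported, were 281 and 456 with the lower floor, 31 and 49 with the higher, 21 and 58 with the floor added, 24 and 74 per gene, 19 and 62 with the per-gene median, 924 and 1155 at 2-fold, 5 and 29 at 8-fold, and 20 and 262 with the hybridisation controls. Of 48 such counts, 16 stayed within 1.5 times the reported one. The median of the stromal and endothelial markers (2 genes, -0.33) turned to 0.0925 with arrays centred on their medians and to 0.059 when filtered on the wild-type arrays alone. With the floor at the 60th percentile the natural killer markers went from -0.27 to 0.38 and the cytotoxic genes from -0.13 to 0.54. Medians nearer 0 that also changed sign under a scaling were those of the cytokine receptors, glycolysis, cholesterol synthesis, chaperones and platelet markers. Hspa4 (1.03) turned to -0.51 with the median over its probe sets. Of all list medians over the settings, 249 of 306 values stayed within 0.28 of the reported one and 55 moved further; of gene values, 3926 of 4739 stayed within it and 812 did not. Signals near the floor limit the sizes: 73 genes that rose were at the floor at 0 h, and 149 that fell were at it at 4 h.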
